A study of Mus musculus with 4 samples.

Results

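The nuclear-encoded respiratory chain genes were taken as every symbol in the gene annotation of the files that began with Nduf followed by a, b, c, s or v, with Cox followed by a digit from 4 to 8, with Uqcr, with Atp5 or with Sdh followed by a letter from a to d, and that did not carry the pseudogene mark -ps. The rule used no measured value and found 97 genes of 31053, with 96 symbols because Atp5o was listed under 2 gene IDs. By role they were 36 subunits of complex I, 4 of complex II, 8 of complex III, 20 of complex IV, 17 of complex V and 12 assembly factors. They were read from single-nucleus RNA sequencing (snRNA-seq) of the brain of male C57BL/6J mice that were 8 weeks old.

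Mice had received, into the cisterna magna, an adeno-associated virus of serotype 9 that carried either full-length mouse VEGF-C (AAV-VEGF-C), a growth factor for lymphatic vessels, or a soluble part of its receptor VEGFR3 that does not bind VEGF-C (AAV-CTRL). All animals were wild type and without a stroke, and the control animals carried a vector too. Brains of 5 mice were pooled for each vector and the cortical and striatal areas were processed apart, so that the data were 4 libraries of 10x 3′ counts. In lists of 4 values the libraries come in a fixed order, first the cortex label with AAV-CTRL and then with AAV-VEGF-C, followed by the striatum label with AAV-CTRL and then with AAV-VEGF-C. Each group was thus a single library, no test between vectors was possible, and every 95% interval given here (exact Poisson for a level, exact conditional binomial for a ratio) covers counting error only and leaves out the spread between animals and between preparations.

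The libraries held 17168, 20370, 23724 and 17466 nuclei, of which 16163, 18836, 21387 and 16435 were kept after doublets and doublet-rich clusters had been left out. Any pair of libraries shared 76 to 118 barcodes, and without those nuclei every ratio of a class or a member stayed within its counting interval. The region labels went against part of the cells: nuclei like striatal projection neurons made up 7.26% and 8.12% of the cortex libraries but 1.77% and 1.75% of the striatum libraries, whereas the excitatory neuron-like class made up 34.7% in both cortex libraries and 1.13% and 0.487% in the striatum libraries. The region is therefore written as a label, and the cell classes, which were rebuilt from marker genes without the respiratory chain genes and are named "X-like", carry the comparisons. Vegfc itself had 716, 833, 875 and 747 UMIs (unique molecular identifiers, each standing for a captured transcript). Scaled to 1000000 UMIs of the same library or class (CPM), its interval was 11.5 to 13.3 with AAV-CTRL and 11.2 to 12.8 with AAV-VEGF-C in cortex, and 12.3 to 14.1 and 11.2 to 13.0 in striatum. Those counts did not separate the vectors. Flt4, the gene of VEGFR3, was at 3.89 (3.40 to 4.44) CPM with AAV-CTRL and 2.78 (2.40 to 3.20) with AAV-VEGF-C in cortex, where the intervals were apart, and at 4.31 (3.82 to 4.84) and 3.70 (3.23 to 4.21) in striatum, where they overlapped. Whether the 3′ counts can see the vectors' transcripts is not given in the sources used here.

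The respiratory chain passes electrons from NADH (complex I, NADH dehydrogenase) and from succinate (complex II, succinate dehydrogenase) to ubiquinone, from there through complex III to cytochrome c, and through complex IV (cytochrome c oxidase) to oxygen. Complexes I, III and IV pump protons across the inner mitochondrial membrane, and complex V (ATP synthase) makes ATP from that gradient. A few core subunits of complexes I, III, IV and V are encoded in mitochondrial DNA, while the other subunits, most of which are described here, are encoded in the nucleus. The brain depends on this pathway for most of its ATP, and neurons are its main consumers there.

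The promoters of the genes that stood at the ends of the vector comparison are shown, to set the start of these short genes, 80 of 97 of which span at most 20 kb, beside their values. Promoter windows from RefSeq (GRCm38.p6, 250 bases before to 50 after the start) were found for 78 of the 96 symbols. Among the symbols with no window were Cox6c, Ndufa4l2, Ndufa2, Cox4i1, Uqcrq, Atp5f1, Cox6a2, Uqcrc2, Sdhc, Ndufaf6, Ndufb9, Cox4i2, Ndufs1, Atp5s, Atp5a1, Uqcrb and Cox8c. The 250 bases before the RefSeq start are given 5′ to 3′ on the gene's strand for Atp5k (chr5:108434400-108434649), Uqcr11 (chr10:80406822-80407071) and Atp5e (chr2:174464102-174464351), which had among the highest ratios, and for Sdhd (chr9:50603850-50604099), which had the lowest ratio in cortex. They were chosen after their values were seen. All 4 lie on the minus strand, and capitals mark a match to the NRF1 motif (GCGCA, any base, GCGC) or to the ETS motif CCGGAAG on either strand.
Atp5k: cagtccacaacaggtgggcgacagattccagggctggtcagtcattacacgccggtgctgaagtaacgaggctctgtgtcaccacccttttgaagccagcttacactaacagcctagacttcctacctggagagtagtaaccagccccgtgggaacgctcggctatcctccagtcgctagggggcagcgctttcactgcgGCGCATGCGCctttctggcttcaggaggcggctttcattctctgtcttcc
Uqcr11: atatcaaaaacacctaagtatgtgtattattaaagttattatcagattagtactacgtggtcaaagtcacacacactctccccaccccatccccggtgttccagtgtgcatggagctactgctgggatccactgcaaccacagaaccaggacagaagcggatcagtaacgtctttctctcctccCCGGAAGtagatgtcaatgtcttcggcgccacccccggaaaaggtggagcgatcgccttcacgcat
Atp5e: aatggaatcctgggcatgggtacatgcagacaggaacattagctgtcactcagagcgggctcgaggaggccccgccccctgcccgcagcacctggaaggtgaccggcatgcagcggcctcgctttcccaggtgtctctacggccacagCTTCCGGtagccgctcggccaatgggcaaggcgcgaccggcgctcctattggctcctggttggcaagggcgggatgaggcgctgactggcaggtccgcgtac
Sdhd: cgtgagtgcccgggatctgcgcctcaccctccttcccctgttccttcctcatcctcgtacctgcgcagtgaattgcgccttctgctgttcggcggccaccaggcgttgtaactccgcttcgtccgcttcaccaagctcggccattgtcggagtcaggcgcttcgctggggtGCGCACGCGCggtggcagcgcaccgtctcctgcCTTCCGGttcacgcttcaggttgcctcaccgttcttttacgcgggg
The NRF1 match of Atp5k began 50 bases before the start and that of Sdhd 79 bases before it, while the ETS matches began 66 bases before the start in Uqcr11, 102 in Atp5e and 46 in Sdhd. Over the whole window the NRF1 motif was in 21 of the 78 member promoters (26.9%) against 5.19% of all 27025 gene symbols, the ETS motif in 21 (26.9%) against 9.93%, and the YY1 motif AAGATGGC in 10 (12.8%) against 3.19%, each searched on both strands. None of the 3 was found in 34 promoters, 1 in 36 and more than 1 in 8. Median GC content was 58.3% in the member windows and 52.7% in all windows. The median log2 ratio of AAV-VEGF-C over AAV-CTRL was 0.14 in cortex and 0.15 in striatum for the 22 genes with the NRF1 motif, and 0.22 in both for the 57 without it. With the YY1 motif it was 0.25 and 0.33, against 0.19 and 0.18 without it, and with the ETS motif 0.19 and 0.21, against 0.21 and 0.20. A match is a description of these letters only, not of binding.

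The level of the members, as summed CPM, was first described across cell classes. Over all kept nuclei it was 7706 CPM in cortex AAV-CTRL, 8957 in cortex AAV-VEGF-C, 8655 in striatum AAV-CTRL and 10201 in striatum AAV-VEGF-C. By class it was highest in endothelial-like nuclei (15009 to 17809 CPM over the 4 libraries) and in mural-like nuclei, which hold pericytes and smooth muscle cells (13579 to 16387), and next in microglia-like nuclei (13270 to 15444), with neighbouring ranges that overlapped. It was lowest in subcortical glutamatergic neuron-like nuclei (5285 and 6200 CPM in the 2 striatum libraries) and in excitatory neuron-like nuclei (5745 to 7522). The astrocyte-like and oligodendrocyte-like classes lay between, at 11806 to 13869 and 11442 to 13961 CPM, and these 2 ranges overlapped. Mural-like nuclei also carried endothelial RNA, with the 12 endothelial markers at 10078 to 12724 CPM in sum. Levels of that class are therefore not those of pericytes and smooth muscle cells alone.

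That order ran against how much RNA was counted per nucleus. Endothelial-like nuclei held 1729 to 2212 UMIs each and excitatory neuron-like nuclei 4565 to 6442, and across clusters the level of the members and the mean UMIs per nucleus, both as logs, correlated with Pearson's r between -0.92 and -0.89 in the 4 libraries (31 to 37 clusters each, which share a library and a denominator). Counted per nucleus in place of CPM, the order was another: excitatory neuron-like nuclei held 28.9 to 43.7 member UMIs each, microglia-like nuclei 19.3 to 26.3 and mural-like nuclei 45.5 to 75.5. With nuclei assigned to the class of their highest marker score instead of by cluster, the endothelial-like level over the excitatory neuron-like level in the 2 cortex libraries, as a ratio, went from 2.56 to 0.995 with AAV-CTRL and from 2.32 to 1.02 with AAV-VEGF-C. The 2 class rules gave the same class to 49.6% and 51.1% of the kept nuclei in the cortex libraries and to 77.9% and 81.3% in the striatum libraries. The order of classes by CPM therefore holds for the cluster-based classes and for that scale only. RNA of other types was looked for in 6 classes. The 11 neuron markers all had a UMI in endothelial-like nuclei, at 5202 to 6284 CPM in sum. Their log2 ratio between vectors there was -0.11 in cortex and -0.09 in striatum. Over the marker sets and classes looked at, such ratios ran from -0.17 to -0.05 in cortex and from -0.09 to 0.22 in striatum. The highest were those of oligodendrocyte markers in excitatory neuron-like (0.22) and astrocyte-like nuclei (0.18) of striatum. The part of such RNA in the members' values was not tested.

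**Figure D1:**
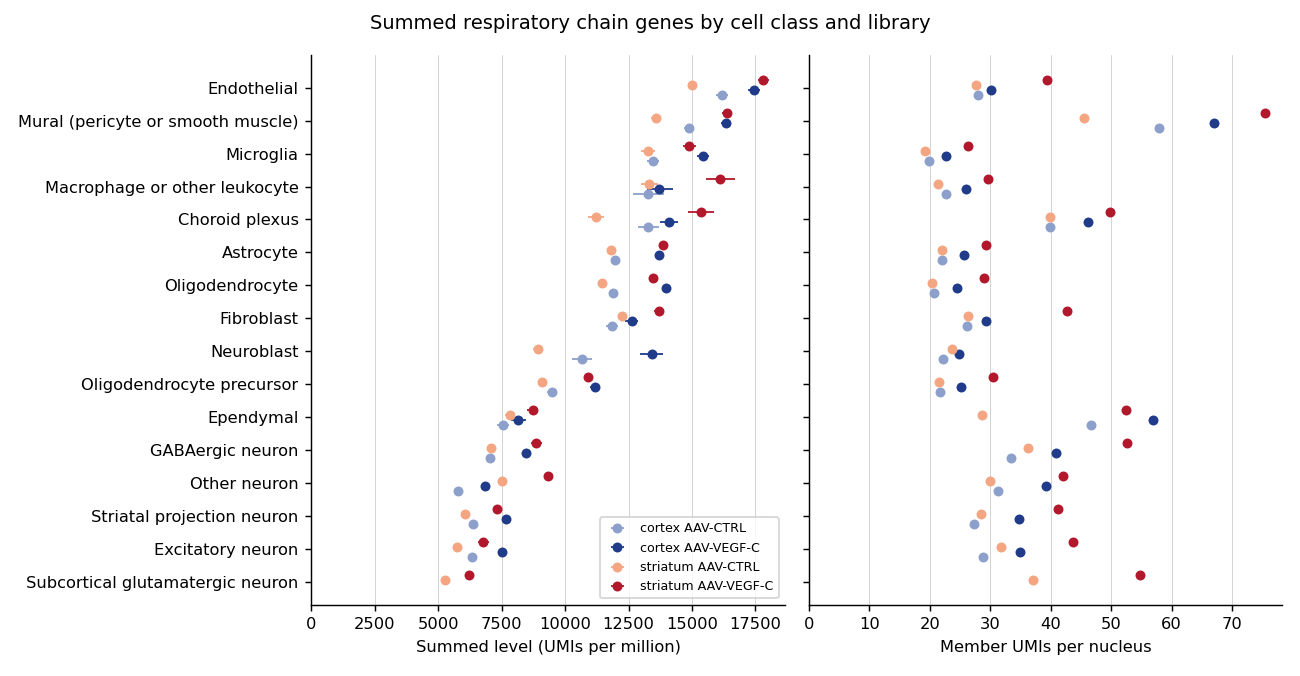
Summed level of the 97 nuclear-encoded respiratory chain genes, in CPM, by rebuilt cell class and library, with 95% Poisson intervals (counting error only). In the CPM panel (left), vascular and microglia-like classes lie to the right (15009 to 17809 CPM in the endothelial-like class) and the neuron classes to the left (5745 to 7522 CPM in the excitatory neuron-like class), and in 13 of 14 classes with all 4 libraries both AAV-VEGF-C libraries lie right of both AAV-CTRL libraries. The right panel gives member UMIs per nucleus, and the order there is another. Microglia-like nuclei are at 19.3 to 26.3 and excitatory neuron-like nuclei at 28.9 to 43.7.

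The second comparison asked whether the level of these genes differed between AAV-VEGF-C and AAV-CTRL. Under both region labels it was higher in the AAV-VEGF-C library. The log2 ratio of the summed level was 0.22 in cortex (95% counting interval 0.21 to 0.22) and 0.24 in striatum (0.23 to 0.24). Of the 96 members with at least 20 UMIs in the pair of libraries, 89 in cortex and 86 in striatum had a ratio above 0, with a median of 0.19 under both labels, beside a median of -0.01 and 0.00 over all genes tested. Of all genes tested, 9972 of 20705 in cortex and 10727 of 21198 in striatum had a ratio above 0. Member UMIs per nucleus, which do not depend on the other genes, went from 27.5 to 33.0 in cortex and from 26.9 to 38.4 in striatum. In striatum all UMIs per nucleus were higher as well, by 0.28 on the log2 scale, against 0.05 in cortex, so that the per nucleus values of striatum carry the depth of the library with them. The mix of classes also differed within the striatum pair. With AAV-CTRL and AAV-VEGF-C, neuroblast-like nuclei were 2.23% and 0.225%, fibroblast-like 4.56% and 2.37%, other neuron-like 34.6% and 39.0%, and oligodendrocyte-like 16.9% and 19.8%. Values over all kept nuclei hold that mix, and its part in them was not tested.

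A log2 ratio of 0.32 was the fold used to call a gene in the absence of a test. In cortex 13 of 96 members were past it upwards and 0 downwards, beside 6.67% of all 20705 genes higher and 8.33% lower. In striatum 27 were higher and 1 was lower (Cox8b), beside 10.6% of 21198 genes higher and 9.34% lower. Under both labels 11 members (11.5%) were past the fold upwards and 0 downwards, beside 1.77% and 1.69% of 20282 genes. The counting interval of the ratio lay wholly above 0 for 72 members in cortex and 68 in striatum, and wholly below 0 for 2 and 5. The like share over all genes is not given here, so these interval counts stand without a background and describe the depth of counting as well.

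**Figure D2:**
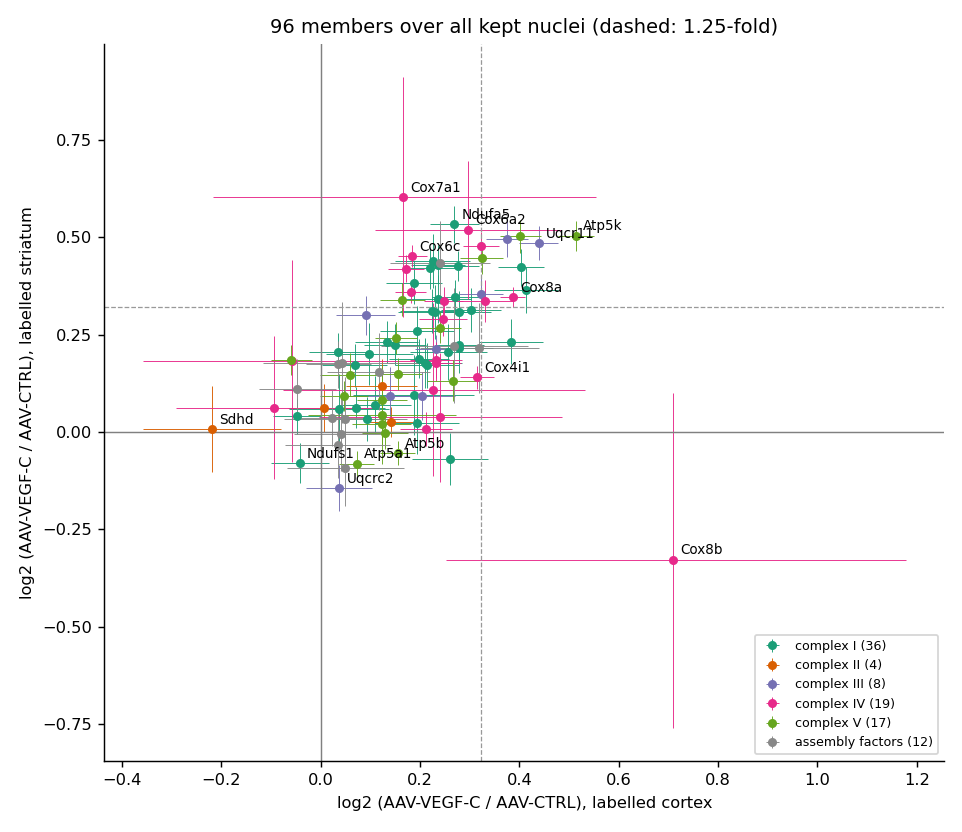
Log2 ratio of AAV-VEGF-C over AAV-CTRL of each member with at least 20 UMIs, in the cortex-labelled libraries (x axis) and the striatum-labelled libraries (y axis), over all kept nuclei, with colours for the complexes and lines at the log2 limit of 0.32. Most points lie in the upper right part, 11 of them past the limit on both axes, and Sdhd, Ndufs1 and Uqcrc2 lie at the low end.

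The higher level was found class by class. Nuclei were enough in 15 classes under each label, and the summed ratio was above 0 in all 30 cases, from 0.05 to 0.33 in cortex and from 0.15 to 0.45 in striatum. Its counting interval included 0 only in the macrophage-like class of cortex (0.05, -0.04 to 0.14). Within clusters the ratio was above 0 in 33 of 33 clusters in cortex and 30 of 30 in striatum.

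Neuron classes were close to each other. In excitatory neuron-like nuclei the summed level was 6328 and 7522 CPM in cortex AAV-CTRL and AAV-VEGF-C, a log2 ratio of 0.25 (0.24 to 0.26), with 23 of 96 members past the fold upwards beside 9.26% of all genes. In striatum, where that class had 241 and 80 nuclei, the levels were 5745 and 6787 CPM and the ratio 0.24 (0.18 to 0.30). The striatal projection neuron-like class had ratios of 0.27 in cortex and 0.28 in striatum, and the GABAergic neuron-like class 0.26 and 0.32. The highest member of the excitatory neuron-like class in cortex was Atp5k at 0.55 (0.49 to 0.61) and the lowest Sdhd at -0.21 (-0.45 to 0.03).

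Glial classes had ratios in the same range. The oligodendrocyte-like class was at 0.23 in cortex and 0.24 in striatum, the astrocyte-like class at 0.19 and 0.23, and the microglia-like class at 0.20 (0.16 to 0.23) and 0.17 (0.13 to 0.21). In oligodendrocyte-like nuclei 22 of 92 members in cortex and 28 of 95 in striatum were past the fold upwards, beside 12% and 11.5% of all genes. In astrocyte-like nuclei the extremes in cortex were Ndufa3 at 0.55 (0.34 to 0.77) and Ndufs1 at -0.23 (-0.44 to -0.03). In microglia-like nuclei of striatum Uqcrc2, a core subunit of complex III, was the lowest at -0.82 (-1.35 to -0.28), from 70 and 54 UMIs.

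In vascular and barrier classes the ratio was lower in cortex than in striatum, as it was in most other classes with both labels. The endothelial-like class had 16182 and 17452 CPM in cortex, a ratio of 0.11 (0.08 to 0.14), and 15009 and 17809 CPM in striatum, a ratio of 0.25 (0.22 to 0.27). The mural-like class had 0.13 (0.11 to 0.16) and 0.27 (0.25 to 0.30), and the choroid plexus-like class 0.09 (0.03 to 0.14) and 0.45 (0.39 to 0.51). In cortex the share of members past the fold upwards was near that of all genes or under it in the vascular classes, with 13 of 92 members in the endothelial-like class beside 14.6% of genes and 10 of 93 in the mural-like class beside 16.5%. In striatum it was 25 of 92 beside 14% and 27 of 92 beside 13.9%. The intervals of the 2 labels were apart in each of these 3 classes, yet they leave out the spread between preparations, and the difference between labels was not tested. They were apart elsewhere too, as in the macrophage-like class (0.05, -0.04 to 0.14, and 0.28, 0.21 to 0.34) and the other neuron-like class (0.24, 0.23 to 0.26, and 0.31, 0.30 to 0.32). The excitatory neuron-like and microglia-like classes had the higher ratio in cortex. The choroid plexus-like class had only 99, 134, 123 and 74 nuclei.

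The 2 AAV-CTRL libraries were also set beside each other. They come from the same pooled mice and differ in region label, so their difference leaves out the spread between pools. In the 14 classes with nuclei in all 4 libraries, the striatum AAV-CTRL library differed from cortex AAV-CTRL by -0.24 to 0.38 on the log2 scale. The ratio between vectors was larger in size than that difference in 12 of the 14 classes in cortex and 13 in striatum, and in 13 of 14 classes both AAV-VEGF-C libraries lay above both AAV-CTRL libraries. Such counts therefore do not set the ratio between vectors against the spread between pools. These are 4 libraries, not replicates, and the vector cannot be told apart from the preparation of its pooled tissue.

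Genes of other kinds moved with the members. The 86 cytosolic ribosomal protein genes were higher by 0.29 in cortex and 0.30 in striatum as a sum, and lay above the members in 15 of 15 and 14 of 15 classes. The 13 mitochondrially encoded subunits, which reach a nuclear preparation as carried-over cytoplasmic RNA, were higher by 0.42 and 0.29 as a sum, with 9 and 8 of 13 past the fold upwards. Their ratio ran from -0.42 in the ependymal-like class of cortex to 0.66 in the choroid plexus-like class of striatum, where the members had 0.11 and 0.45. In the endothelial-like and mural-like classes of striatum the mitochondrially encoded sum was at -0.01 while the members were at 0.25 and 0.27. The share of all UMIs on mitochondrially encoded genes was 0.728% and 0.975% in cortex AAV-CTRL and AAV-VEGF-C, and 0.928% and 1.14% in striatum AAV-CTRL and AAV-VEGF-C. With nuclei over 5% of such UMIs left out, the ratio of the members stayed above 0 in 30 of 30 cases. That filter took out only 77, 115, 163 and 150 kept nuclei of the 4 libraries, so it could change the ratios little. How far cytoplasmic RNA took part in the members' ratio was not tested.

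**Figure D3:**
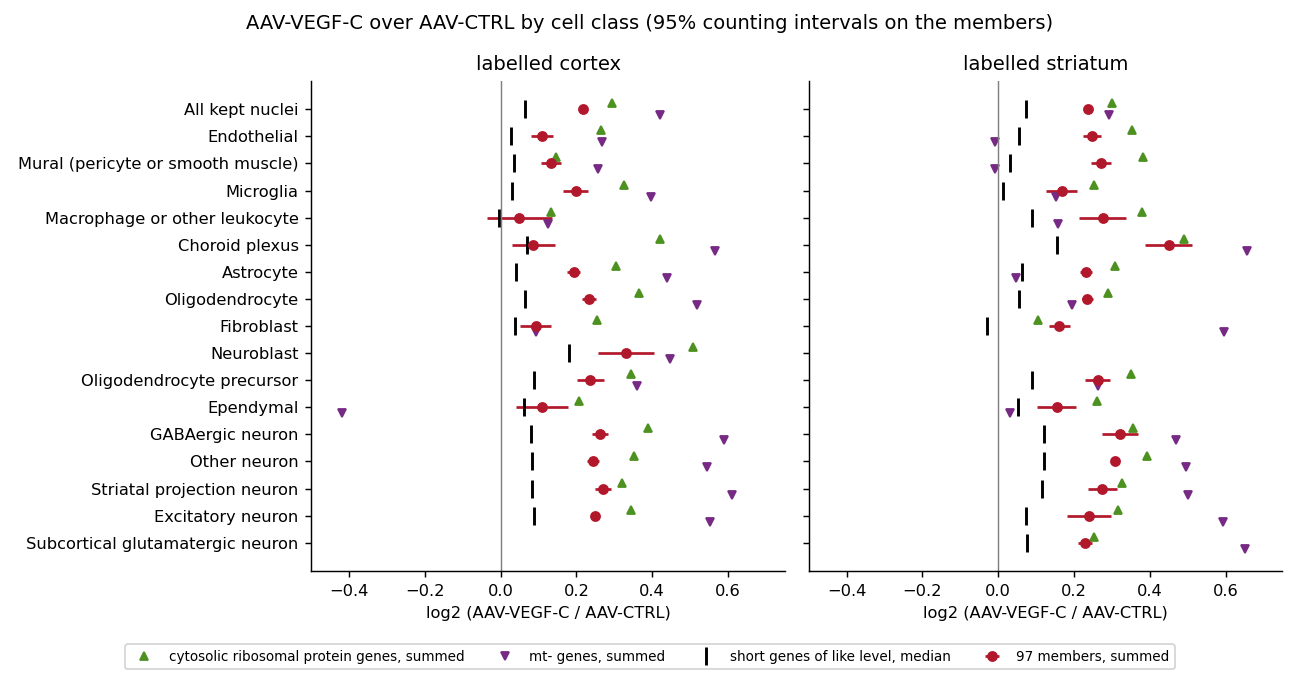
Log2 ratio of AAV-VEGF-C over AAV-CTRL by cell class, for the members summed (red, with 95% counting intervals), the cytosolic ribosomal protein genes summed, the mitochondrially encoded genes summed and the median of short genes of like level (black bars), with the cortex label on the left and the striatum label on the right. The members lie above 0 and right of the short genes' median in every class, and the mitochondrially encoded sum runs from -0.42 to 0.66.

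Short genes served as a comparison, because the members have a median genomic span of 7.67 kb against 19.9 kb over all genes. These were 2591 other genes of at most 20 kb at the 10th to 90th percentile of the members' level (15.6 to 172 CPM). Ribosomal protein genes and mitochondrially encoded genes were left out of the set. It had a median ratio of 0.06 in cortex and 0.07 in striatum, and 2.32% and 4.63% of its genes were past the fold upwards. With the span limit at 10 kb, nearer to the members' span, the median was 0.096 and 0.103, and 3.47% and 6.84% were past the fold. Of the ribosomal protein genes, 21.4% in cortex and 30.6% in striatum were past it, 13 of them under both labels. The members' median was above that of the short genes in all 15 classes under each label. A ratio above 0 was found for 1855 of 2589 short genes in cortex and 1877 of 2591 in striatum. For the ribosomal protein genes it was 81 of 84 and 84 of 85. Of the 2589 short genes with enough UMIs under both labels, 21 (0.811%) were past the fold upwards in both. Their median span of 10.3 kb and exon length of 3.34 kb were still longer than those of the members (7.67 kb and 1.59 kb), so that the match is in level and in the upper limit of the span, not in length itself.

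Within the members the ratio went with the span too. The 31 members of at most 5 kb had a median of 0.24 in cortex and 0.34 in striatum, beside 0.13 and 0.14 in other genes of that span and of like level. The 17 members over 20 kb had 0.04 and 0.04, beside -0.02 and -0.03. Each band of members lay above its band of other genes, from which ribosomal protein genes were again left out, and both went down with the span. Across the 96 members Spearman's rho between span and ratio was -0.55 in cortex and -0.49 in striatum, as a description over genes that share their libraries. Long members include Ndufs4, a complex I subunit of 100 kb, at 112 and 108 CPM in cortex (ratio -0.05) and 123 and 126 CPM in striatum (0.04).

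**Figure D4:**
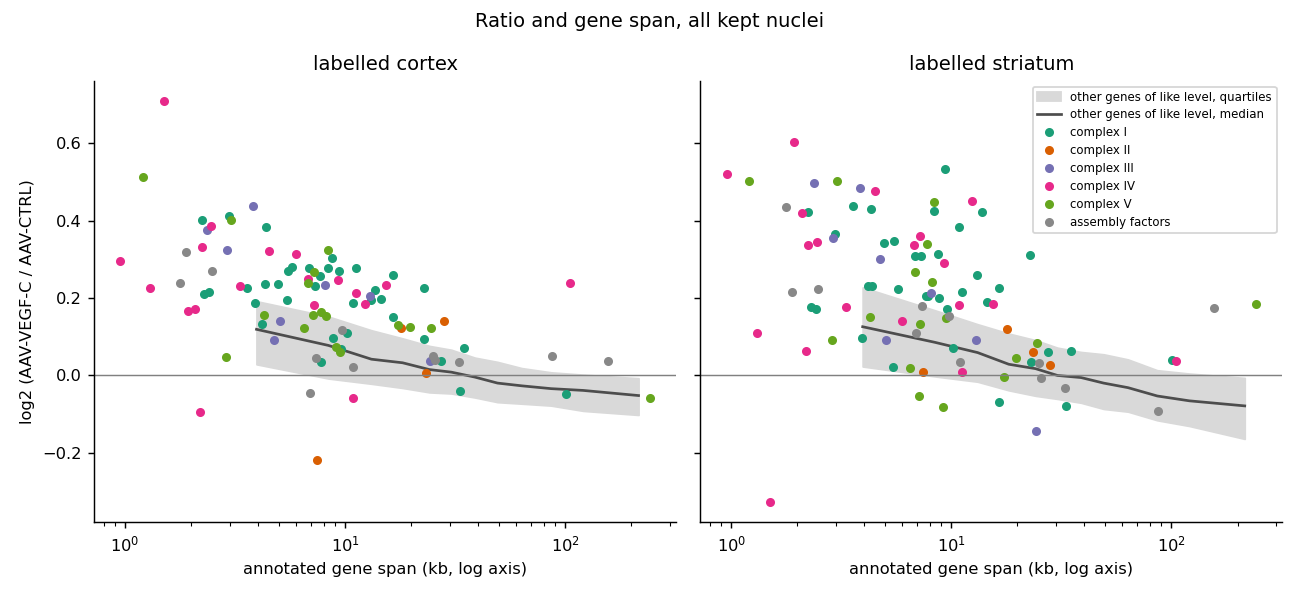
Log2 ratio of AAV-VEGF-C over AAV-CTRL of each member (points, coloured by complex) against its genomic span on a log axis, with the running median of other genes of like level (line), under each region label. The 31 members of at most 5 kb have a median of 0.24 in cortex and 0.34 in striatum and lie mostly above the line, and the 17 over 20 kb lie close to 0.

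Complex I, which oxidises NADH, went from 2282 to 2633 CPM in cortex (log2 ratio 0.21) and from 2643 to 3144 CPM in striatum (0.25). Of its 36 subunits 34 had a ratio above 0 under each label, and 3 and 10 were past the fold upwards, beside 6.67% and 10.6% of all genes. Ndufa3, an accessory subunit of the membrane arm, was at 54.7 and 72.8 CPM in cortex (0.41, 0.35 to 0.48) and at 63.2 and 81.4 CPM in striatum (0.36, 0.31 to 0.42). Ndufa2, another accessory subunit, was at 106 and 140 CPM in cortex (0.40) and at 99.2 and 133 CPM in striatum (0.42). These 2 of the 36 were past the fold under both labels, beside 1.77% of all genes, and Ndufa2 was above 0 in 14 of 15 classes under each label. Ndufa5 was at 94.4 and 114 CPM in cortex (0.27) and at 90.4 and 131 CPM in striatum (0.53, 0.49 to 0.58), and in striatum it was the highest complex I member. Ndufs1, the large iron-sulphur subunit that takes part in electron transfer from NADH, was at 76.0 and 73.9 CPM in cortex (-0.04) and at 95.9 and 90.7 CPM in striatum (-0.08, -0.13 to -0.03). Of the members with the most UMIs, Ndufs5 was at 0.27 and 0.35 and Ndufa13 at 0.28 and 0.43, but Ndufa13 overlaps Yjefn3 on its strand.

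Complex II, the only complex with no mitochondrially encoded subunit, had the lowest ratios of the 5 complexes. Its 4 subunits went from 236 to 251 CPM in cortex (0.09, 0.06 to 0.12) and from 299 to 309 CPM in striatum (0.05, 0.02 to 0.08). Under either label 0 of 4 passed the fold, beside 6.67% and 10.6% of all genes upwards, so that a count of so few genes is near that share. Sdha, the flavoprotein that oxidises succinate, was at 124 and 137 CPM in cortex (0.14) and at 160 and 163 CPM in striatum (0.03, -0.01 to 0.07). Sdhc, a membrane anchor, was at 0.01 and 0.06, with both intervals including 0. Sdhd, the other membrane anchor, was at 14.5 and 12.4 CPM in cortex (-0.22, -0.36 to -0.08), the lowest member there, and at 21.1 and 21.2 CPM in striatum (0.01). The median span of these 4 genes was 20.7 kb against 7.67 kb over all members.

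Complex III, which hands electrons to cytochrome c, went from 743 to 904 CPM in cortex (0.28, 0.27 to 0.30) and from 770 to 936 CPM in striatum (0.28, 0.26 to 0.30). Its small subunits led. Uqcr11 was at 148 and 201 CPM in cortex (0.44, 0.40 to 0.48) and at 113 and 158 CPM in striatum (0.48, 0.44 to 0.53), and it was above 0 in 15 of 15 classes under each label. Uqcr10 was at 0.38 and 0.50, and Uqcrq at 0.32 and 0.36, so that 3 of 8 subunits were past the fold under both labels, beside 1.77% of all genes. Uqcrh, the hinge subunit at cytochrome c1, was at 0.23 and 0.21. Uqcrc2 was at 57.1 and 58.6 CPM in cortex (0.04) and at 76.6 and 69.3 CPM in striatum (-0.14, -0.20 to -0.09), where 3 of 15 classes had a ratio above 0.

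Complex IV, which reduces oxygen, went from 2093 to 2510 CPM in cortex (0.26, 0.25 to 0.27) and from 2245 to 2794 CPM in striatum (0.32, 0.31 to 0.33). Past the fold upwards were 4 and 9 of 19 members, beside 6.67% and 10.6% of all genes. Cox8a, the member with the most UMIs, was at 366 and 479 CPM in cortex (0.39, 0.36 to 0.41) and at 337 and 428 CPM in striatum (0.35, 0.32 to 0.37), and it was above 0 in all 15 classes under each label. Cox5b was at 71.7 and 90.2 CPM in cortex (0.33) and at 79.3 and 100.2 CPM in striatum (0.34). Cox7a2 was at 177 and 221 CPM in cortex (0.32) and at 164 and 228 CPM in striatum (0.48). Cox6c was below the fold in cortex, at 292 and 332 CPM (0.18), and past it in striatum, at 272 and 371 CPM (0.45).

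Complex V, the ATP synthase, went from 2033 to 2323 CPM in cortex (0.19) and from 2346 to 2640 CPM in striatum (0.17), with members from -0.06 to 0.51 and from -0.08 to 0.50. Atp5k, the e subunit of the membrane part, was at 169 and 242 CPM in cortex (0.51, 0.48 to 0.55) and at 149 and 211 CPM in striatum (0.50, 0.47 to 0.54). Atp5e, the epsilon subunit of the central stalk, was at 135 and 178 CPM in cortex (0.40) and at 117 and 166 CPM in striatum (0.50). Atp5j2, the f subunit, was at 0.32 and 0.45. These 3 were past the fold under both labels, beside 1.77% of all genes, while the alpha and beta subunits of the catalytic head were not. Past the fold upwards were 3 of 17 members in cortex and 4 of 17 in striatum, beside 6.67% and 10.6% of all genes. Atp5b, the catalytic beta subunit, was at 199 and 221 CPM in cortex (0.15) and at 276 and 266 CPM in striatum (-0.05). Atp5a1, the alpha subunit, was at 205 and 215 CPM in cortex (0.07) and at 258 and 244 CPM in striatum (-0.08).

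The 12 assembly factors, which help build complexes I and II but stay out of them, had ratios of 0.07 in cortex (0.04 to 0.10) and 0.10 in striatum (0.08 to 0.13). Past the fold upwards were 0 and 1 of 12, beside 6.67% and 10.6% of all genes, so that the count is near that share. Sdhaf3, a factor for complex II, was at 18.3 and 18.9 CPM in cortex (0.05) and at 27.9 and 26.2 CPM in striatum (-0.09, -0.19 to 0.00). Their median span was 10.3 kb, with 5 of the 12 over 20 kb.

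Other genes of energy metabolism had lower median ratios than the members. Of the 34 respiratory chain genes outside the symbol rule (Cyc1, the cytochrome c1 subunit of complex III, with cytochrome c and further assembly factors and regulators), 2 in cortex and 4 in striatum were past the fold upwards, with medians of 0.09 and 0.11. Of 13 enzymes of the tricarboxylic acid cycle 0 passed it under either label, with medians of 0.01 and -0.04. Of 18 glycolysis gene IDs 2 and 2 passed it, with medians of 0.14 and 0.07. Aldoa is among them under 2 IDs, 1 of which had only 53 UMIs in cortex and 57 in striatum. Of 13 regulators of mitochondrial biogenesis 0 passed the fold upwards, with medians of -0.04 and -0.05, and 0 genes of these 4 lists were past the fold downwards. Over all genes 6.67% in cortex and 10.6% in striatum were past the fold upwards, so that counts in lists this short are near that share or cannot be told from it. The lists differ from the members in span and level, and these counts are a description.

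Paralogues of subunits, which replace a common subunit in particular tissues, differed widely between cell classes. Ndufa4l2, a paralogue of the complex IV subunit Ndufa4 known from low-oxygen responses and pericytes, was at 211, 206, 197 and 212 CPM in the mural-like class of the 4 libraries. The endothelial-like class was next, at 27.7 to 34.2 CPM, and 70.9% of all Ndufa4l2 UMIs lay in mural-like nuclei. Cox4i2, the paralogue of Cox4i1 that takes part in oxygen sensing, was at 83.7, 82.0, 75.8 and 94.6 CPM in the mural-like class and at 6.44 to 10.4 CPM in the endothelial-like class. It made up 15.1% to 16.9% of the UMIs of Cox4i1 and Cox4i2 together in mural-like nuclei against 0.286% to 0.935% in excitatory neuron-like nuclei. For both genes the interval of the ratio between vectors included 0: in the mural-like class the log2 ratio of Ndufa4l2 was -0.04 in cortex (-0.27 to 0.19) and 0.11 in striatum (-0.11 to 0.33), and that of Cox4i2 -0.03 (-0.40 to 0.34) and 0.32 (-0.03 to 0.67). The mural-like class also carried endothelial RNA, since all 12 endothelial markers had a UMI there, at 10078 to 12724 CPM in sum. The same markers summed to 12365 to 12924.5 CPM in the endothelial-like class itself. The values of the mural-like class are therefore not those of pericytes and smooth muscle cells alone, and the endothelial part in them was not tested.

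Other paralogues had their highest mean levels in GABAergic neuron-like, subcortical glutamatergic neuron-like or choroid plexus-like nuclei. Cox6a2, known as the heart and muscle form of subunit 6a, had its highest mean level in GABAergic neuron-like nuclei, at 21.0, 33.5, 28.9 and 34.9 CPM in the 4 libraries, and the next in subcortical glutamatergic neuron-like nuclei at 11.6 and 19.4 CPM. It was at 3.77 to 4.95 CPM in striatal projection neuron-like nuclei, under the 8.65 to 14.5 CPM of endothelial-like nuclei. Its ratio between vectors was 0.67 in the GABAergic neuron-like class of cortex (0.30 to 1.05, from 90 and 185 UMIs) and 0.74 in the subcortical glutamatergic neuron-like class of striatum (0.36 to 1.12), and over all nuclei 0.30 in cortex and 0.52 in striatum. Cox7b2, a testis form, was highest in the subcortical glutamatergic neuron-like class, at 36.4 and 33.1 CPM. Cox6b2, another testis form, was at 27.5 to 50.2 CPM in choroid plexus-like and at 24.9 to 39.0 CPM in fibroblast-like nuclei.

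Cox8b, the muscle form of subunit 8, was highest in the choroid plexus-like class, at 33.6, 70.8, 6.87 and 91.7 CPM from 10, 31, 3 and 22 UMIs. Over all nuclei it was the highest member in cortex, at 1.06 and 1.73 CPM (0.71, 0.25 to 1.18), and the lowest in striatum, at 1.64 and 1.31 CPM (-0.33, -0.76 to 0.10). Counts that small do not order the libraries. Cox7a1, the heart and muscle form of subunit 7a, was at 1.73 and 1.94 CPM in cortex (0.17) and at 2.27 and 3.46 CPM in striatum (0.60, 0.30 to 0.91). Cox8c, a testis form, had 3 UMIs in all libraries together and was left out of the counts above.

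**Figure D5:**
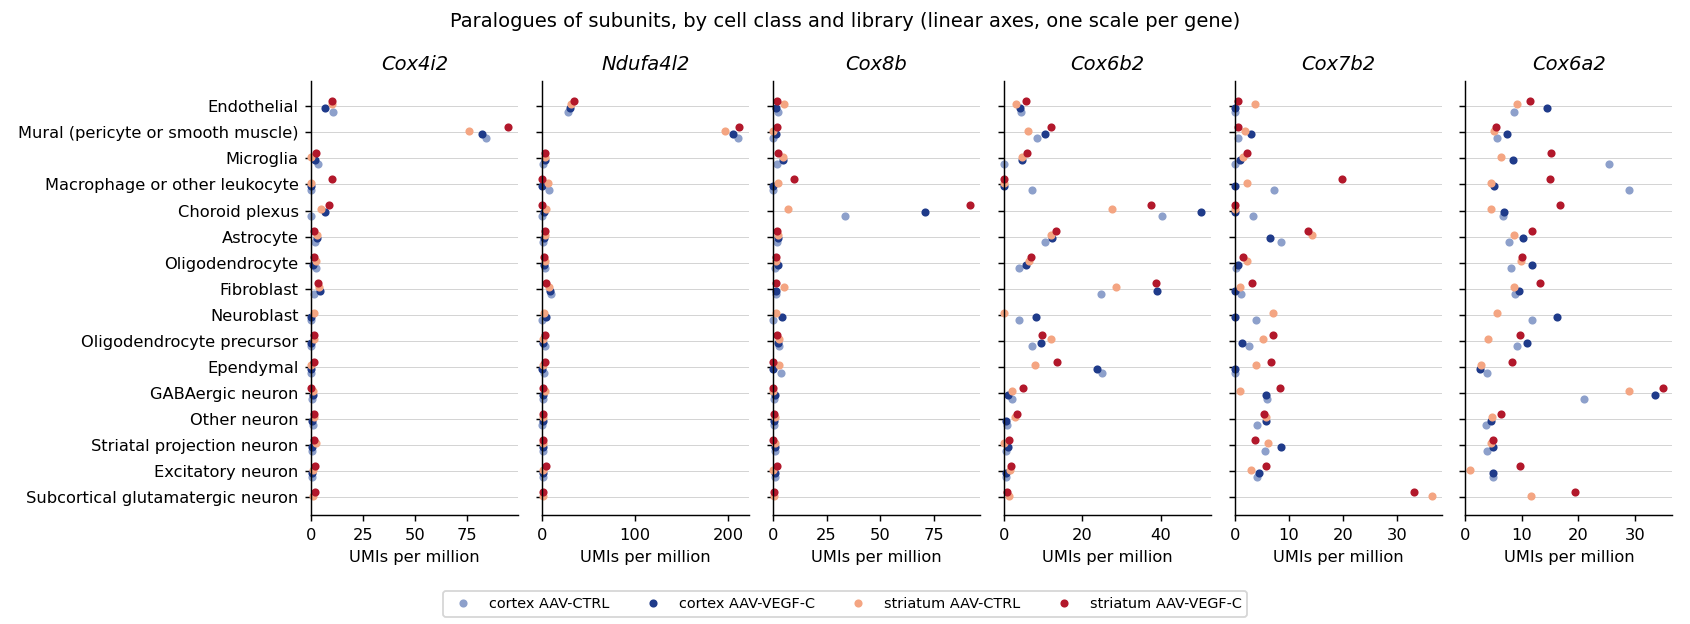
Level of 6 paralogues of respiratory chain subunits, in CPM on linear axes with a scale for each gene, by rebuilt cell class and library (points). Cox4i2 and Ndufa4l2 stand out in the mural-like class (75.8 to 94.6 and 197 to 212 CPM), Cox8b and Cox6b2 in the choroid plexus-like class, Cox7b2 in subcortical glutamatergic neuron-like nuclei and Cox6a2 in GABAergic neuron-like nuclei. Cox8b in the choroid plexus-like class runs from 6.87 to 91.7 CPM on 3 to 31 UMIs.

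Some members could not be counted cleanly. 7 of the 97 overlap another gene on the same strand: Ndufb2 (Gm42420), Ndufa13 (Yjefn3), Cox4i1 (Gm20388), Ndufb9 (Gm49356), Ndufb8 (Gm20538) and both IDs of Atp5o, a subunit of the peripheral stalk. The longer Atp5o ID spans 243 kb (GRCm38, chromosome 16, 91684398 to 91926982, minus strand) with 0.53 kb of exons and runs across Donson, Cryzl1 and the end of the other ID. It was at 149 and 143 CPM in cortex (-0.06) and at 159 and 181 CPM in striatum (0.18), whereas the shorter ID was at 0.12 and 0.02. Neither value can be assigned to Atp5o transcripts alone.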

How the data were processed

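Nuclei were isolated from pulverised frozen tissue and sequenced with 10x Chromium 3′ chemistry. The deposited matrices hold UMI counts per gene and barcode, which the authors made with Cell Ranger on mm10 (version 5.0.1 per the file headers, 5.1.1 per the submitters' processing notes); counting of intron reads is not given in the sources used here. The AAV-CTRL libraries held 63165470 UMIs (cortex) and 77253372 (striatum), and the AAV-VEGF-C libraries 78332657 (cortex) and 67773329 (striatum). No per-sample columns were left unused.

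From these counts, Scrublet as built into scanpy 1.11.5 (expected doublets 8%) called 4.56% to 8.29% of nuclei per library. Nuclei were clustered without the members, the mitochondrially encoded and the ribosomal protein genes (5000 variable genes, 50 components, 15 neighbours, Leiden resolution 1.2). Of 64 clusters 13 rich in doublets were left out and 6 stayed unnamed; the others were named from marker lists, and a difference from the study's own classes may come from these rebuilt names. Cells are not replicates, so counts were summed per library and class, scaled to CPM and compared as log2 ratios with exact intervals at the 95% level, without a pseudocount and without p-values. A gene entered a comparison with at least 20 UMIs in its pair of libraries. Named members were both paralogues of a pair, those with the most UMIs per complex, the 5 highest and 5 lowest ratios among members with at least 100 UMIs, those past the fold limit (log2 0.32) under both labels, and the extremes of a class. Gene spans came from GENCODE annotation of GRCm38. The steps were tested on simulated counts. Members and lists were chosen with earlier results of these data known. Alternatives were thinning each nucleus to 1000 UMIs, other class rules, filters, folds and scalings; leaving out 2 neuronal clusters with few UMIs and nuclei with shared barcodes was added after the data were seen. UMI intervals cover counting error only. Levels of different genes were not compared, other than as the share of a paralogue in the UMIs of its pair, which is not scaled by length and was compared between classes. Results for 1 member are not reported here on their own.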

Additional observations from a re-analysis of the deposited data

Results flagged for a closer look

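For the following members the counting intervals of the ratio between vectors lay on opposite sides of 0 under the 2 region labels, with 1 library in each group, so that the difference was not tested. Atp5b had a log2 ratio of 0.15 in cortex and -0.054 in striatum, and Atp5a1 had 0.073 in cortex and -0.081 in striatum. The longer ID of Atp5o, which overlaps other genes on its strand, went the other way, with -0.059 in cortex and 0.18 in striatum.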

How the results depend on the processing

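No leave-one-out was possible with 1 library in each group. No paired analysis was possible because the result comes from no test and each group has 1 library. The summed log2 ratio over all nuclei (0.22 in cortex, 0.24 in striatum) stayed above 0 under every alternative run. In cortex it was 0.22 centred on the median of all genes, 0.22 without the assembly factors, 0.21 without Cox8a, 0.23 without the 2 neuronal clusters with few UMIs and 0.19 with nuclei thinned to 1000 UMIs. In striatum it was 0.25 with doublets kept, 0.28 thinned, 0.24 without the assembly factors and 0.22 without those clusters.

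With a fold of 1.5, 1 member was higher under each label in place of 13 and 27, and 0 were lower in striatum, as also with doublets kept or thinned. The members past that fold were Cox8b in cortex and Cox7a1 in striatum, both with few UMIs. The share of all genes past it is not given here. The endothelial-like over excitatory neuron-like level in cortex (2.56 with AAV-CTRL, 2.32 with AAV-VEGF-C) was 0.995 and 1.02 with classes from the highest marker score, 2.53 and 2.25 with doublets kept, and 3.03 and 2.65 without the clusters with few UMIs; the cause was not tested. By that score the ependymal-like ratio in cortex was -0.0036 in place of 0.11, and 28 of 29 class ratios were above 0. Thinned, the longer Atp5o ID in cortex was at 0.017 in place of -0.059. All 30 class ratios were above 0 under each of the other alternatives. The depth limits members with few UMIs, such as Cox8b and Cox7a1, and classes under 150 nuclei.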
